A study of Mus musculus with 6 samples.

Results

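Type 2 cytokines, the alarmins that call them and the receptors for both were followed in bile duct RNA from mice with and without doxycycline. The set holds 10 genes: Il4, Il5, Il13, Il9, Il33, Tslp, Il4ra, Il13ra1, Il13ra2 and Il1rl1. They were taken by name, and all 15 non-control probes that carry 1 of these names were used, out of 56605 probes for 37008 gene names on the array.

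Type 2 immunity is the arm of the immune system turned against worms and involved in allergy and in repair of mucosal surfaces. Injured or stimulated epithelium and stroma release the alarmins IL-33 and TSLP, which act on innate lymphoid cells, mast cells, dendritic cells and helper T cells. These cells in turn make IL-4, IL-5, IL-13 and IL-9. IL-4 and IL-13 signal through the IL-4 receptor alpha chain and the kinase-activated factor STAT6, and IL-33 signals through ST2, the product of Il1rl1.

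The DOX+ group comprised 3 C57BL/6 mice of the line called iFGF10 in the labels, given 0.02% doxycycline in drinking water for 5 days, and the DOX- group comprised 3 given water alone for 5 days. Doxycycline is the usual drug for turning on an inducible construct, and the series design calls the DOX+ mice FGF10 overexpressing. For the promoter of the construct, and the cells it is active in, the sources used here give nothing. The source names call the DOX- mice untreated iFGF10 mice, but their descriptions carry names that begin with WT and hold a pair of numbers. Whether the DOX- mice carried the construct, and whether each array holds 1 animal or a pool, is therefore not settled by the labels. No mice without the construct were given doxycycline among the samples used here, so the drug and the induced gene cannot be told apart. Since nothing ties an array to 1 animal, the p-values rest on the spread among these arrays, which may be partly technical.

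Each total RNA from bile duct epithelium was read on 1 Agilent 1-colour array. Between 55.93% and 61.9% of 59305 spots per array were well above background and 0 were saturated. All 3 Fgf10 probes were below that mark on all 6 arrays, with a highest intensity of 17.8. Whether any of them matches the induced transcript is not known, so they do not check the labels. All 10 listed duct epithelial genes, among them Krt19 and Epcam, were well above background on all 6 arrays. So were all 7 fibroblast and all 5 smooth muscle genes, so the RNA was not of epithelium alone. Fewer cells of a type and less RNA per cell cannot be told apart in such samples. DOX- replicate 1 shared a row of the slide with the DOX+ arrays, and DOX- replicates 2 and 3 filled the other.

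The probes decide which transcript of a gene is read, and for Il1rl1 this matters most. Il1rl1 encodes a long form, the membrane receptor ST2, and a short form that lacks the membrane anchor and is secreted as a decoy for IL-33. Probes 1 and 2 carry the accession of transcript variant 1, the long form, at chr1:40522187-40522246 and chr1:40520014-40520073 (mm9, plus strand). Probe 3 carries that of transcript variant 2, the short form, at chr1:40504769-40504828, with 15.2 kb between it and the nearer long-form probe. The opening 30 of the 60 bases of each probe are given 5′ to 3′, to show that the 3 probes read different stretches.
Il1rl1 probe 1: gccattgactccttgtgtgttttcttcatg
Il1rl1 probe 2: ccttacccaaattgccattacagtcgagca
Il1rl1 probe 3: ctctgtaacaggatcttttgtctagatttc
The Il4 and Il13 probes lie at or near the end of the coding sequence and are given whole, since these are the cytokines that feed the IL-4 receptor.
Il4 probe: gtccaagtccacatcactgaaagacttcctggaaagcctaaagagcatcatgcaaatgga
Il13 probe: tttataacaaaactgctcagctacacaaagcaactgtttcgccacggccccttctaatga
Il13ra2 has a probe at chrX:143818095-143818154 (probe 1) and another 22.5 kb away at chrX:143840627-143840686 (probe 2), both on the minus strand of mm9. Their opening 30 bases show that they, too, share no stretch.
Il13ra2 probe 1: ttcttgacatagagccagccagcaggagtc
Il13ra2 probe 2: catacatggagagaaagcttgcctttctga

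Of the 10 genes, 7 had a probe well above background on at least 1 array, and Il5, Il9 and Il13 had none. The lowest intensity flagged as well above background on an array was 22.2 to 27.8. Il4ra, Il13ra1, Il33 and Il1rl1 were well above background on all 6 arrays, and these 4 entered the test over 20736 genes. The plot of all 15 probes by array shows which probes were above background: both Il4ra probes, Il13ra1, Il33 probe 1 and Il1rl1 probe 1 on all 6 arrays, and the other 10 probes on 3 arrays at most. Intensities of different probes are not compared as levels, since each probe has its own response.

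**Figure D1:**
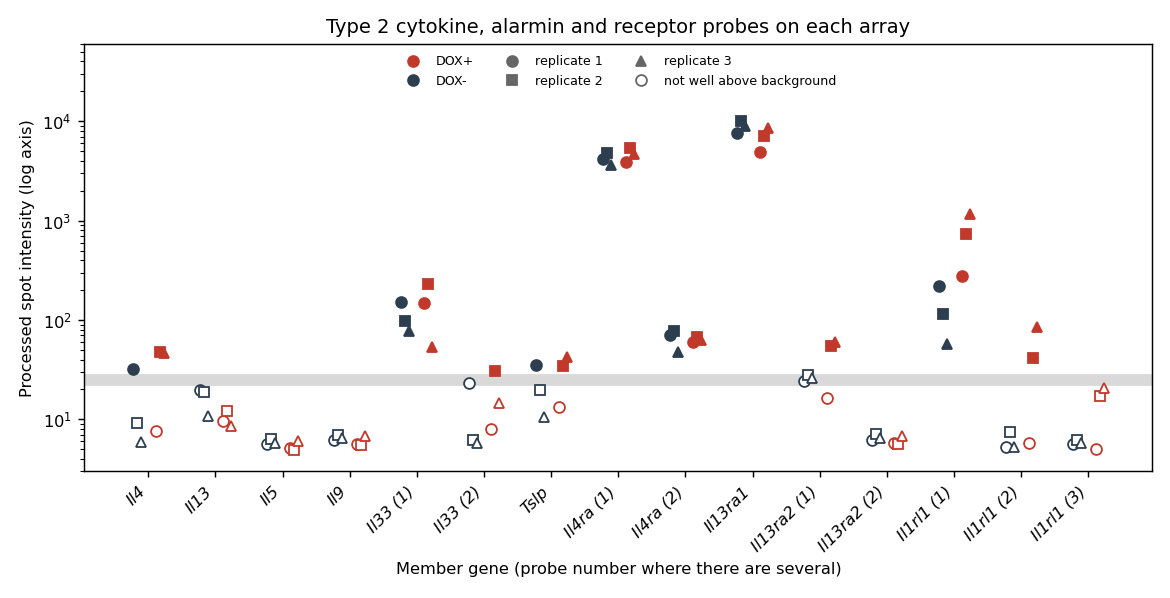
Processed spot intensity (log axis) of the 15 probes of the 10 genes on each array, DOX+ in red and DOX- in dark blue, with the marker shape giving the replicate. Filled markers are spots well above background, open markers are not, and the grey band spans the lowest intensity so flagged on each array (22.2 to 27.8). Il5, Il9 and Il13 have open markers on all 6 arrays, while the 3 DOX+ values of Il1rl1 probe 1 lie above its 3 DOX- values.

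Il4, Il13 and Il5 sit together on chromosome 11, where the probes for Il4 (53426076 to 53426135) and Il13 (53445564 to 53445623) are 19.4 kb apart and that for Il5 (53538345 to 53538404) lies a further 92.7 kb away (mm9). Il4 encodes the cytokine that drives IgE class switching and helper T cell polarisation. Its processed intensity was 7.65, 47.5 and 47.0 on DOX+ arrays 1 to 3 and 32.2, 9.13 and 5.96 on DOX- arrays 1 to 3. DOX+ replicates 2 and 3 and DOX- replicate 1 were well above background and the other 3 were not, so the groups overlap. As 3 of the 6 Il4 values lie below background, no size or test of a difference is given.

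Il13 encodes the cytokine that acts on goblet cells, smooth muscle and macrophages. Its intensity was 9.70, 12.3 and 8.66 in DOX+ replicates 1 to 3 and 19.7, 18.7 and 10.8 in DOX- replicates 1 to 3, all below the background mark. The groups overlap as read, but after scaling to each array's 75th percentile each DOX- array lay above each DOX+ array. With both groups below background no fold is given, and Il13 did not enter the test over 20736 genes. Il5, the eosinophil growth and survival factor, lay between 4.95 and 6.28 on all 6 arrays, and Il9, a mast cell growth factor, between 5.49 and 6.91 (chromosome 13, 56580678 to 56580737). Neither showed a spot that stood out from that floor on any array. This limits what can be said to RNA below the array's detection, and is not a measure of absence.

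Il33 encodes an alarmin stored in the nuclei of endothelial, stromal and epithelial cells and released on damage. Its brighter probe (probe 1; chromosome 19, 30035101 to 30035160) read 147.8, 229.3 and 53.7 in DOX+ replicates 1 to 3 and 150.5, 97.8 and 77.1 in DOX- replicates 1 to 3. The highest and the lowest of the 6 values were both DOX+, so the groups overlap fully. The log2 levels, set to each array's 75th percentile, were -2.74 ± 1.18 in DOX+ and -2.91 ± 0.41 in DOX- (SD, n = 3 each). The difference of 0.18 (SE 0.59) did not pass the limma test (adjusted p = 0.923), and its 95% interval, -1.25 to 1.61, leaves room for a change of either sign. Leaving out DOX+ replicate 2 turned it to -0.26, and leaving out DOX+ replicate 3 raised it to 0.85. Il33 probe 2, which spans an intron (30024240 to 30026507), was well above background on DOX+ replicate 2 alone, at 30.3, with the next highest at 23.1 on DOX- replicate 1.

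DOX+ replicate 3, where Il33 was lowest, also had the lowest summed level of the 7 fibroblast genes (80.0, against 99.0 to 151 on the other 5 arrays, in units of each array's 75th percentile). The 8 endothelial genes summed to 14.5 there, against 18.5 and 18.8 on the other DOX+ arrays and 8.47 to 12.0 on the DOX- arrays. Their part in the Il33 values was not tested.

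Tslp encodes thymic stromal lymphopoietin, an epithelial cytokine that primes dendritic cells and innate lymphoid cells. Its only probe, on chromosome 18, read 13.5, 34.1 and 42.8 in DOX+ replicates 1 to 3 and 34.9, 19.6 and 10.6 in DOX- replicates 1 to 3. The arrays well above background were DOX+ replicates 2 and 3 and DOX- replicate 1, the same 3 arrays as for Il4. The groups overlap, and with 3 of the 6 Tslp values below background no size of a difference is given.

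Il4ra encodes the chain shared by the receptors for IL-4 and IL-13. Its brighter probe (chromosome 7, 132721137 to 132721196) read 3900, 5431 and 4732 in DOX+ replicates 1 to 3 and 4164, 4832 and 3613 in DOX- replicates 1 to 3. After scaling, Il4ra was the steadiest of the tested members, at 2.51 ± 0.17 in DOX+ and 2.41 ± 0.06 in DOX- on the log2 scale (SD, n = 3 each). The difference was 0.10 (SE 0.14; limma adjusted p = 0.773), with a 95% interval of -0.22 to 0.43, and the groups overlap. The interval leaves out any 2-fold change of Il4ra in either direction. Il4ra probe 2 (132712550 to 132712609) read 59.9 to 66.7 in DOX+ and 47.3 to 77.5 in DOX-, with a difference of -0.06.

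Il13ra1 encodes the chain that joins IL-4 receptor alpha to form the receptor used by both cytokines on epithelium. Its probe (chromosome X, 33711118 to 33711177) read 4934, 7167 and 8566 in DOX+ replicates 1 to 3 and 7575, 9993 and 8882 in DOX- replicates 1 to 3. The lowest value was on DOX+ replicate 1, but DOX+ replicate 3 lay above DOX- replicate 1, so the groups overlap. The log2 levels were 3.04 ± 0.23 in DOX+ and 3.48 ± 0.27 in DOX- (SD, n = 3 each). The difference of -0.43 (SE 0.19) did not pass the limma test (adjusted p = 0.4), with a 95% interval of -0.90 to 0.04. Blocking on slide row, which leaves DOX- replicate 1 as the sole control beside the DOX+ arrays, gave Il13ra1 a difference of -0.16 (SE 0.245; limma adjusted p = 0.947).

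Il13ra2 encodes a high-affinity binding chain for IL-13, known mainly as a decoy. Probe 1 read 16.4, 54.1 and 59.8 in DOX+ replicates 1 to 3 and 24.4, 27.7 and 26.3 in DOX- replicates 1 to 3. Only DOX+ replicates 2 and 3 were well above background, and DOX+ replicate 1 was the lowest of all 6. As no DOX- array was well above background, the fold of Il13ra2 is given against a floor, at 1.37-fold brighter in DOX+. It sets the DOX+ mean (3 arrays) against, per DOX- array, the higher of the probe's signal and the lowest signal well above background. DOX+ replicate 1 was itself below background, so the value is not a firm lower limit. The groups overlap, and no test is given against values below background. Probe 2 lay between 5.62 and 7.08 on all 6 arrays.

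Il1rl1, the IL-33 receptor found on mast cells, type 2 innate lymphoid cells and helper T cells, was the member with the largest difference. Probe 1 read 275, 732 and 1168 on DOX+ arrays 1 to 3 and 221, 115 and 57.6 on DOX- arrays 1 to 3. All 3 DOX+ values lay above all 3 DOX- values, with the narrowest gap between DOX+ replicate 1 and DOX- replicate 1. The log2 levels were -0.40 ± 0.89 in DOX+ and -2.79 ± 0.83 in DOX- (SD, n = 3 each). The difference of 2.39 (SE 0.57; 95% interval 1.00 to 3.78) did not pass the limma test over all genes (unadjusted p = 0.00543, adjusted p = 0.219). It ranked at the 99.3 percentile of all differences, while its spread within groups was at the 94 percentile. Blocking on slide row lowered the Il1rl1 value to 1.49 (SE 0.68; limma adjusted p = 0.77). Without single arrays it lay between 2.01 and 2.88 (adjusted p between 0.17 and 0.607).

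Probe 2 of the long form read 5.78, 41.9 and 84.2 in DOX+ replicates 1 to 3 and 5.33, 7.47 and 5.29 in DOX- replicates 1 to 3. DOX+ replicates 2 and 3 were well above background and the other 4 arrays were not. Against the same kind of floor probe 2 was 1.01-fold brighter in DOX+. With DOX+ replicate 1 below background, that value is likewise not a firm lower limit. The short-form probe 3 read 5.08, 17.1 and 20.8 in DOX+ replicates 1 to 3 and 5.61, 6.25 and 5.80 in DOX- replicates 1 to 3, with 0 arrays well above background. All 3 Il1rl1 probes thus had their highest values on DOX+ replicates 2 and 3. For the short form both groups were below background and no fold is given, so the data do not say whether the long and short forms differed unequally.

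Il1rl1 moved across arrays beside the summed level of the mast cell genes. Of 12 listed mast cell genes 11 were tested and 0 passed the limma test over all genes. Fcer1a and Ms4a2, the alpha and beta chains of the IgE receptor, reached the filter through DOX+ alone, since only 1 DOX- array was well above background for each. Of the 9 genes well above background on all 6 arrays 8 had higher and 1 a lower mean in DOX+, beside 48.2% of all genes higher. The median log2 difference of the 9 was 2.13, beside -0.01 for all genes. Without overlap 6 of the 9 were higher, beside 10.1% of all genes. At an unadjusted limma p under 0.05 and higher were 6, beside 7.02%. The summed level of the 11 was 10.0, 16.7 and 106 in DOX+ replicates 1 to 3 and 7.60, 4.46 and 2.86 in DOX- replicates 1 to 3, the same order as Il1rl1 in both groups. Without Fcer1a and Ms4a2 it was 9.84, 16.3 and 104 in DOX+ and 7.50, 4.43 and 2.83 in DOX-. Most of the sum on DOX+ replicate 3 came from Mcpt4 (42420) and Mcpt1 (38920), with Mcpt2 next at 5132. Kit, the stem cell factor receptor that mast cells need, rose in the same order in DOX+ (354.2, 977.5 and 1561 in replicates 1 to 3). In DOX- replicates 1 to 3 Kit read 636.2, 902.9 and 699.8, and its difference was 0.09 (SE 0.45). Hdc was the 1 gene with a lower mean in DOX+ (difference -0.83, SE 1.19). It read 192.9, 191.9 and 168.2 in DOX+ replicates 1 to 3 and 853.7, 1058 and 35.2 in DOX- replicates 1 to 3. The order of the mast cell sum was not particular to mast cell genes. The 17 signal relay genes given below summed to 43.3, 47.1 and 48.5 in DOX+ replicates 1 to 3. In DOX- replicates 1 to 3 they summed to 43, 42.8 and 41.8. The sum of 11 IL-4 and IL-13 target genes also kept this order within both groups. Endothelial and fibroblast sums did not. Markers of other cells lay apart too. Of the 10 duct epithelial genes 9 had lower means in DOX+. The sum of the 10 ran in the reverse order, at 585, 535 and 527 in DOX+ replicates 1 to 3 and 596, 649 and 815 in DOX-. Without overlap 5 of the 10 were lower, beside 10.9% of all genes. At an unadjusted p under 0.05 were 3, beside 13.3% of all genes in either direction. All 8 endothelial genes had higher means in DOX+, beside 48.2% of all genes. Without overlap 4 of the 8 were higher, beside 10.1% of all genes. The same 4 were at an unadjusted p under 0.05, beside 7.02% of all genes. In the test over all genes 0 of these 18 genes passed. The part of mast cell, epithelial and endothelial RNA in the Il1rl1 values was not tested.

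**Figure D2:**
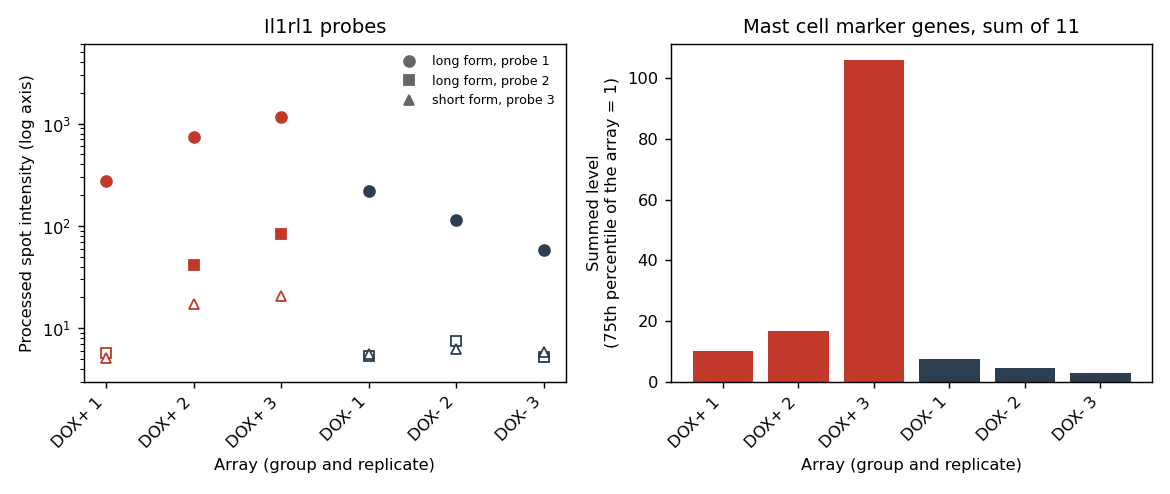
Left, processed spot intensity (log axis) of the 3 Il1rl1 probes on each array, with filled markers for spots well above background; right, summed level of the 11 tested mast cell genes on each array, in units of that array's 75th percentile. DOX+ is red and DOX- dark blue. Probe 1 and the mast cell sum are highest on DOX+ replicate 3 (1168 and 106) and lowest on DOX- replicate 3 (57.6 and 2.86). Most of the sum on DOX+ replicate 3 comes from Mcpt4 and Mcpt1.

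Genes of other cells that carry ST2 or make type 2 cytokines were read as well. Of 12 T cell and innate lymphoid cell genes 10 were tested and 0 passed. Of the 8 well above background on all 6 arrays 6 had higher and 2 lower means in DOX+, beside 48.2% of all genes higher. The summed level of these 8 was 13.2 to 16.3 in DOX+ and 8.62 to 15.6 in DOX-, with Cd8a at background on all arrays. Of 7 eosinophil and basophil genes, Epx, Mcpt8 and Cd200r3 were at background on all arrays and 2 were tested, Il5ra and Siglecf. Their summed levels were 0.461 to 3.84 in DOX+ and 1.62 to 3.11 in DOX-, mostly from Siglecf. It read 272.5, 445.3 and 3406 in DOX+ replicates 1 to 3 and 1264, 2687 and 1334 in DOX- replicates 1 to 3. Il5ra lay between 55.95 and 107.8 on all 6 arrays. The part of these cells in the values of Il4 and Il1rl1 was not tested. By the rule fixed for likeness, the genes nearest to Il1rl1 over the 6 arrays were AI592984 (Pearson r = 0.995), the homeobox gene Hoxd4 (0.994) and the carbohydrate sulfotransferase Chst1 (0.993). In all, 516 of 20735 genes had r over 0.9 with Il1rl1, over 6 arrays that share their group difference.

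Over all 20736 genes 8 passed the limma test at an adjusted p under 0.05, which is 0.0386%, and of the 4 tested members 0 did. At an unadjusted p under 0.05 were 13.3% of all genes and 1 of the 4 members, Il1rl1. Groups that did not overlap were found for 21% of all genes and likewise for 1 of the 4. Means were higher in DOX+ for 3 of the 4, beside 48.2% of all genes, and 1 of the 4, Il1rl1, was 2-fold or more apart, beside 5.83%. The median difference of the 4 members was 0.14, beside -0.01 for all genes. With 4 members these counts are no result about the set. Without single arrays the median of the 4 ran from -0.13 (without DOX+ replicate 2) to 0.51 (without DOX+ replicate 3). Tested without the filter on dim probes, the 10 genes again gave 0 calls, beside 1 call among all 37008 genes. Il13 joined Il1rl1 at an unadjusted limma p under 0.05 (0.0268, adjusted p = 0.483), on Il13 intensities that were all below background. At that unadjusted mark were 3303 of the 37008 genes.

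**Figure D3:**
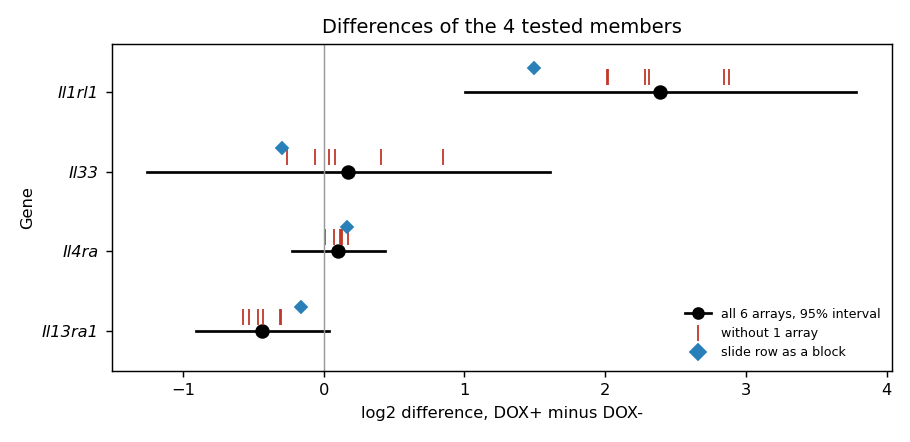
log2 differences, DOX+ minus DOX-, of the 4 members tested, with limma's 95% interval as a bar (n = 3 arrays per group). Red ticks give the value without 1 array and blue diamonds the value with the slide row as a block. Il1rl1 lies above 0 throughout (1.49 to 2.88), Il33 changes sign, Il4ra stays between 0.008 and 0.17, and Il13ra1 stays below 0.

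Member probes were also ranked by array. Over the 10 member probes well above background on any array, DOX+ replicate 1 was the lowest DOX+ array for 7, DOX+ replicate 3 for 3 and DOX+ replicate 2 for 0. Over all genes tested these shares were 29.9%, 38.6% and 31.5%. Among the DOX- arrays, replicate 1 was highest for 5 and lowest for 4 of the 10 probes, beside 29.5% and 46.4% of all genes. Some of these ranks are of spots below background. Several of the 10 probes read 1 gene, so they are not independent of each other. Spread within groups was at the 94.4 percentile of all genes for Il33, the 54.1 percentile for Il13ra1 and the 15.9 percentile for Il4ra.

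The partner chains and further ligands gave no calls. Of 18 listed genes 11 were tested and 0 passed. Of the 10 well above background on all 6 arrays 7 had higher and 3 lower means in DOX+, beside 48.2% of all genes higher. Their median was 0.13, beside -0.01 for all genes. Il9r, Il3, Csf2, Il31, Il31ra, Areg and Il18rap did not reach the filter. Named by the smallest p, the IL-18 receptor chain Il18r1 differed by -0.94 (SE 0.48) and the IL-3 receptor beta chain Csf2rb2 by 1.39 (SE 0.83). The TSLP receptor chain Crlf2 (-0.34, SE 0.21) and the IL-5 receptor alpha chain Il5ra (0.25, SE 0.21) followed. All of these had overlapping groups. Crlf2 read 2969, 2887 and 4061 in DOX+ replicates 1 to 3 and 5178, 4694 and 2634 in DOX- replicates 1 to 3. The chains that pair with a member, picked for this role after the values were seen, differed by 0.12 (SE 0.31) for Il2rg, partner of Il4ra, 0.08 (SE 0.23) for Il1rap, partner of Il1rl1, and 0.40 (SE 0.60) for Il7r, partner of Crlf2.

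Of 18 kinases, adaptors, transcription factors and feedback genes all were tested and 0 passed. Of the 17 well above background on all 6 arrays 11 had higher and 6 lower means in DOX+ (median 0.09), beside 48.2% of all genes higher. At an unadjusted p under 0.05 and higher in DOX+ were 4 of the 17, beside 7.02% of all genes. Cish, a feedback inhibitor induced by STAT5, read 3304, 6279 and 6669 in DOX+ replicates 1 to 3 and 2586, 2883 and 1288 in DOX- replicates 1 to 3. Its groups did not overlap, and the difference was 1.23 (SE 0.29; limma adjusted p = 0.212). The adaptor Irs2, the kinase Jak3 and the kinase Tyk2 differed by 0.57 (SE 0.21), 0.60 (SE 0.23) and 0.37 (SE 0.15), with limma adjusted p of 0.340, 0.349 and 0.363. Stat6, the factor that relays IL-4 and IL-13 and was likewise picked after its values were seen, differed by -0.11 (SE 0.14).

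Of 23 listed genes known to respond to IL-4 or IL-13, 15 were tested and 0 passed the limma test. Arg1, Chil4, Ccl24 and Ccl17 reached the filter through DOX+ alone, so they had to lie high there and are left out of the counts that follow. Of the 11 genes well above background on all 6 arrays 9 had higher and 2 lower means in DOX+, beside 48.2% of all genes higher. Their median log2 difference was 0.49, beside -0.01 for all genes tested. Of these 11, 2 were higher in DOX+ at an unadjusted p under 0.05, beside 7.02% of all genes, and 3 had all DOX+ arrays above all DOX- arrays, beside 10.1%. Their summed level was 29.3, 65.5 and 124 in DOX+ replicates 1 to 3 and 30.2, 23.7 and 21.9 in DOX- replicates 1 to 3, so DOX+ replicate 1 lay below DOX- replicate 1. Chil3, a chitinase-like protein of alternatively activated macrophages and epithelium, read 1192, 9466 and 70480 in DOX+ replicates 1 to 3 and 84.3, 191.5 and 140.9 in DOX- replicates 1 to 3. The difference of Chil3 was 6.09 (SE 1.32; limma adjusted p = 0.200). Its relative Chil4 read 635.9, 5844 and 108000 in DOX+ replicates 1 to 3 and 14.4, 83.9 and 68.9 in DOX- replicates 1 to 3. Chil4 was well above background on 2 of the 3 DOX- arrays and was kept through DOX+ alone, so no size or test is given. The resistin-like gene Retnla differed by 3.06 (SE 0.68; limma adjusted p = 0.204). Clca1, a goblet cell secretory protein, read 131.6, 9977 and 6758 in DOX+ replicates 1 to 3 and 242.9, 157.3 and 239.4 in DOX- replicates 1 to 3, so as read DOX+ replicate 1 lay below all 3 DOX- arrays (difference 3.26, SE 1.55; limma adjusted p = 0.423). For Clca1 as for Il4, Tslp and Il13ra2, DOX+ replicates 2 and 3 were the high DOX+ arrays. Muc5ac, Itln1, Retnlb, Alox15, Fcer2a, Pdcd1lg2 and Ccl22 did not reach the filter.

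**Figure D4:**
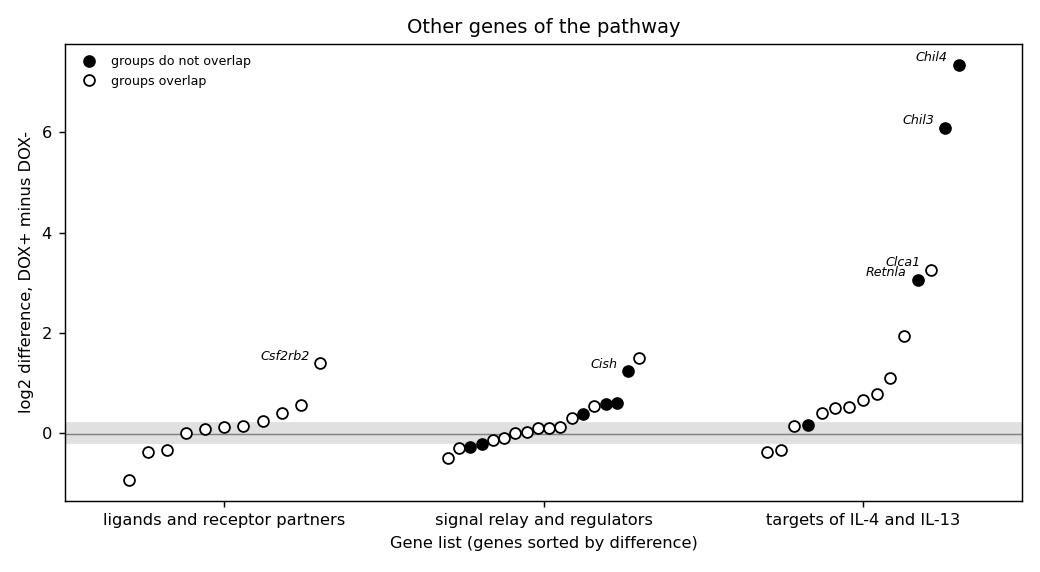
log2 differences, DOX+ minus DOX-, of the tested genes of 3 pathway lists, sorted within each list; filled points are genes whose groups of 3 arrays do not overlap. The grey band holds the middle of all 20736 genes, from the lower quartile (-0.20) to the upper quartile (0.20), with a line at their median (-0.01). Among genes well above background on all 6 arrays, the targets of IL-4 and IL-13 reach highest, up to 6.09 for Chil3. Arg1, Chil4, Ccl24, Ccl17 and Gata3 are plotted too, but reached the filter through DOX+ alone, so they had to lie high there. Il25 reached it through DOX- alone. None of the points passed the test over all genes.

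RefSeq promoter windows of GRCm38.p6, 250 bases before to 50 after a start site, were matched for 9 of the 10 genes, with 12 windows in all. They were searched on both strands for AGATAA and TGATAA, words bound by GATA factors, and for TTC and GAA with any 4 bases between them, a word bound by STAT6. These words occur in 11.2%, 9.05% and 6.95% of 32851 windows of that length. A GATA word lay in 5 of the 12 windows, those of Il13, Il13ra2 and Il4 (1 window each) and both of Il1rl1, beside 18.6% of all windows. The STAT6 word lay in 3 of the 12, 1 each of Il33, Il4 and Il9. The windows of Il1rl1, the member with the largest difference, are shown as an example, at its distal and its proximal start site. The array's probes do not read which start site was used. The 250 bases before each Il1rl1 start are shown on the plus strand, with the matches in capitals (TTATCT is AGATAA read on the other strand), first the window at chr1:40429320-40429569 and then that at chr1:40439379-40439628.
Il1rl1 distal: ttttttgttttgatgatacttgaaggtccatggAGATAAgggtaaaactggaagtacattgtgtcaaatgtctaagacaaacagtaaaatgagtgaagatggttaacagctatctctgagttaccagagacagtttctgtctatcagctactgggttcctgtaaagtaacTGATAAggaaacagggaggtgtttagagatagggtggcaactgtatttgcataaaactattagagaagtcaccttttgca
Il1rl1 proximal: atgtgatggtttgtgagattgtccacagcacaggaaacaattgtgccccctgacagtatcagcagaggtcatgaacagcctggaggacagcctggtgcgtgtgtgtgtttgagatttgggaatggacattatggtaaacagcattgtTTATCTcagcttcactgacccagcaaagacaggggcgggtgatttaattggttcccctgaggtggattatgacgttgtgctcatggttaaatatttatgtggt
A match is a description of these letters and not a site of binding.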

How the data were processed

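The scanner files hold 1 colour of intensity per spot, which the authors extracted with Agilent's Feature Extraction software (10.7.1.1 per the file headers, although the submitters' processing notes name 9.5.1.1), with spatial and multiplicative detrending switched on in the headers. Starting from the deposited processed intensity, log2 values were set to the 75th percentile of each array. Outlier spots were dropped and spots of a probe averaged. A probe entered the test where every array of either group flagged it as well above background (31719 of 56605 probes), and the brightest probe stood for its gene. limma 3.58.1 (R 4.3.3; lmFit and eBayes, two-sided) tested 20736 genes, with Benjamini-Hochberg adjustment and a threshold of 0.05. The procedure was tested on simulated data with independent noise for each gene and array. These data held no effect of slide row or cell mix, so they do not bear on either. Genes were matched to RefSeq tables for 32994 probes through the accession, for 10224 through the current symbol and for 520 through a former one; the remaining 12867 carry the array's own name. Positions of probes (mm9) were read from the scanner files.

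The deposited table of the authors' processed intensity (linear, median 57.79 on each array) served as an alternative, beside other scalings, background correction, filters, blocks and leaving out single arrays. All arrays shared 1 slide, and 3 arrays per group limit the precision. The labels do not say that replicate numbers pair animals, so the main test did not use them as pairs. A replicate block was run as an alternative. Deviations from group means correlated at -0.087, -0.131 and -0.02 for same-numbered arrays, and from -0.129 to 0.219 for differently numbered ones. With 3 arrays per group these correlations cannot decide on pairing. Members, lists and tests were chosen with earlier results of these data known. The text names all members, the 4 genes of smallest p per pathway list, and the 3 genes most correlated with the member of largest range.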

Additional observations from a re-analysis of the deposited data

How the results depend on the processing

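Under all 16 alternatives 0 members passed the limma test. The directions of Il1rl1 (1.49 to 2.88), Il4ra (0.004 to 0.19) and Il13ra1 (-0.57 to -0.16) were kept, with lowest adjusted p of 0.17, 0.598 and 0.275. Il33 reversed with the slide row as a block (-0.29), without DOX+ replicate 1 (-0.058) and without DOX+ replicate 2 (-0.26), and was 0.849 without DOX+ replicate 3; the cause was not tested. The count of all genes past the test, 8, became 2 with quantile normalization and with the authors' processed values, 5 with the median of each array, 1 without a filter on dim probes, 5 with probes well above background on all 6 arrays and 18 with every probe tested on its own. It was 0 with the slide row as a block (1409 genes at an unadjusted p under 0.05) and 0 with the replicate block (2257). The median of the members was 0.14 with the replicate block, 0.04 with the median of each array and 0.002 when slide row was blocked. Without single arrays, over the same genes, the count ran from 0 (without DOX- replicate 2; 1541 at an unadjusted p under 0.05) to 9, and the median of the members from -0.13 to 0.51. Scaling to the median of each array moved the median of all genes to -0.11. Most cytokine probes lie near the background, which limits what they show.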

Other observations

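Around the cytokine genes on chromosome 11, neighbours picked after their values were seen were read well above background. Kif3a, a kinesin subunit of cilia next to Il4 (probe at 53397887 to 53397946, mm9), was, after scaling, lower on each DOX+ array than on each DOX- array, by -0.56 on the log2 scale (SE 0.19), and did not pass the test (limma adjusted p = 0.31). Rad50, a DNA repair gene between Il13 and Il5 (53463096 to 53463155), differed by 0.05 (SE 0.14), and Irf1, an interferon-responsive factor beyond Il5 (53590746 to 53590805), by -0.26 (SE 0.17). Il25, the tuft cell alarmin, read 19.2, 78.5 and 352.1 in DOX+ replicates 1 to 3 and 41.3, 100.3 and 113.7 in DOX- replicates 1 to 3, with the lowest and the highest value both in DOX+ (difference 0.01, SE 0.99; limma adjusted p = 0.999). Il17rb, the IL-25 receptor chain, was likewise highest on DOX+ replicate 3 (378.8, against 82.4 to 173.8 on the other 5 arrays).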
